A study of Mus musculus with 8 samples.

Results

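The kelch genes examined here are 10 members of a family whose proteins fold a beta propeller from kelch repeats: Klhl40, Klhl41, Klhl31, Klhl24, Klhl21, Klhl7, Klhl30, Klhl38, Klhl34 and Klhdc7a. They were taken as a list and matched by symbol to the 55487 gene identifiers of the count files. All 10 were found, and all 10 were among the 14695 genes that passed the filter on low counts. The list was selected on results of the KO against NLC comparison, in which Klhdc7a and Klhl34 had been among the genes called. Their values in that comparison are therefore given as a description, with no test read from them.

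Gene expression was measured by RNA-seq of stranded mRNA libraries from the left ventricle of C57BL/6 mice at 12 weeks of age. The KO group comprised 4 animals labelled GPR116-/- (myocyte-specific) and titled CM-ADGRF5-KO, and the other group comprised 4 animals labelled wild-type and titled NLC. GPR116 is another name of ADGRF5, a receptor of the adhesion class that couples to G proteins, and the comparison asks what its loss in cardiomyocytes changes in the ventricle. In both groups the first 2 replicates were males, and replicates 3 and 4 were females. No source used here gives the Cre driver or the alleles that the NLC animals carry.

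Most proteins whose genes are named Klhl carry a BTB domain, a BACK domain and kelch repeats, and many of them serve as substrate adaptors of ubiquitin ligases built on cullin-3. Several are made mainly in striated muscle, where they act on sarcomere proteins, in part by stabilising a partner and not by marking it for degradation. Klhdc7a encodes a kelch domain protein that does not belong to the BTB group.

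Libraries held 26587475 to 39615408 gene reads in KO and 25328784 to 28347135 in NLC. Levels are given in CPM, the usual scaling of read counts to library size, with library sizes adjusted by the trimmed mean of M values (TMM). The cardiomyocyte markers were abundant, with a summed level of 82126 to 96446 CPM in KO and 78192 to 92238 CPM in NLC over 12 genes. Atrial markers summed to 424 to 1564 CPM in KO and 436 to 6319 CPM in NLC, the highest in NLC replicate 4. Libraries with like sums differed in single markers. KO replicate 1 (sum 959 CPM) had Nppa at 864 and Myl7 at 0.264 CPM, and NLC replicate 2 (sum 940 CPM) had 446 and 157 CPM. All 7 atrial markers tested had a negative log2 fold change of KO over NLC (median -1.58), and 0 passed by edgeR. Endothelial markers summed to 880 to 961 CPM in KO and 928 to 1121 CPM in NLC. The targeted gene Adgrf5 stood at 224 ± 15.7 CPM in KO and 233 ± 17.4 CPM in NLC (SD, n = 4 each). Endothelial cells also transcribe it, so these levels are no check of genotype, and every direction below rests on the labels. In such bulk tissue, fewer cells of a type and less RNA per cell cannot be told apart.

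Of the 10 genes, Klhdc7a was higher and Klhl34 lower in KO, each by about a factor of 2, while the others differed by less. Klhdc7a was 2.23-fold higher in KO and Klhl34 2.07-fold lower. The other 8 lay between a log2 fold change (KO over NLC) of -0.33 for Klhl24 and 0.28 for Klhl40. The 2 genes were the only members of the list with an edgeR quasi-likelihood adjusted p under 0.05, against 0.102% of the 14695 genes tested. DESeq2 called the same 2 members, against 1.02% of genes. Their 4 KO libraries lay entirely on one side of the 4 NLC libraries, which was the case for 6.25% of all genes tested. Because the list was made with these calls known, neither count is read as a result.

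Klhdc7a (ENSMUSG00000078234) is a gene of a single exon at 139960220 to 139968026 on chromosome 4 of GRCm38, on the minus strand. It was measured at 19.3, 22.3, 13.6 and 13.8 CPM in KO replicates 1 to 4, against 8.06, 10.2, 4.79 and 7.71 CPM in NLC replicates 1 to 4. All KO libraries were above all NLC libraries, and in each group both males were above both females. The means were 17.2 ± 4.29 CPM in KO and 7.70 ± 2.24 CPM in NLC (SD, n = 4 each). The log2 fold change was 1.16 (SE 0.141, 95% interval 0.85 to 1.47). These values rested on 368 to 728 reads per library in KO and 142 to 251 in NLC.

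Klhl34 (ENSMUSG00000047485) lies at 157818435 to 157820369 on the plus strand of the X chromosome and has a single exon as well. Its level was 5.18, 4.25, 5.27 and 4.06 CPM in KO replicates 1 to 4, against 9.22, 10.6, 11.1 and 8.02 CPM in NLC replicates 1 to 4. The highest KO library was below the lowest NLC library. The means were 4.69 ± 0.623 CPM in KO and 9.72 ± 1.37 CPM in NLC (SD, n = 4 each), with a log2 fold change of -1.05 (SE 0.143, 95% interval -1.36 to -0.73). It had 108 to 196 reads per library in KO and 232 to 328 in NLC. The GENCODE M21 model of Klhl34 holds 1935 exonic bases, all of them coding, and no untranslated end is annotated. Which annotation release the counting used is not stated in the labels.

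**Figure D1:**
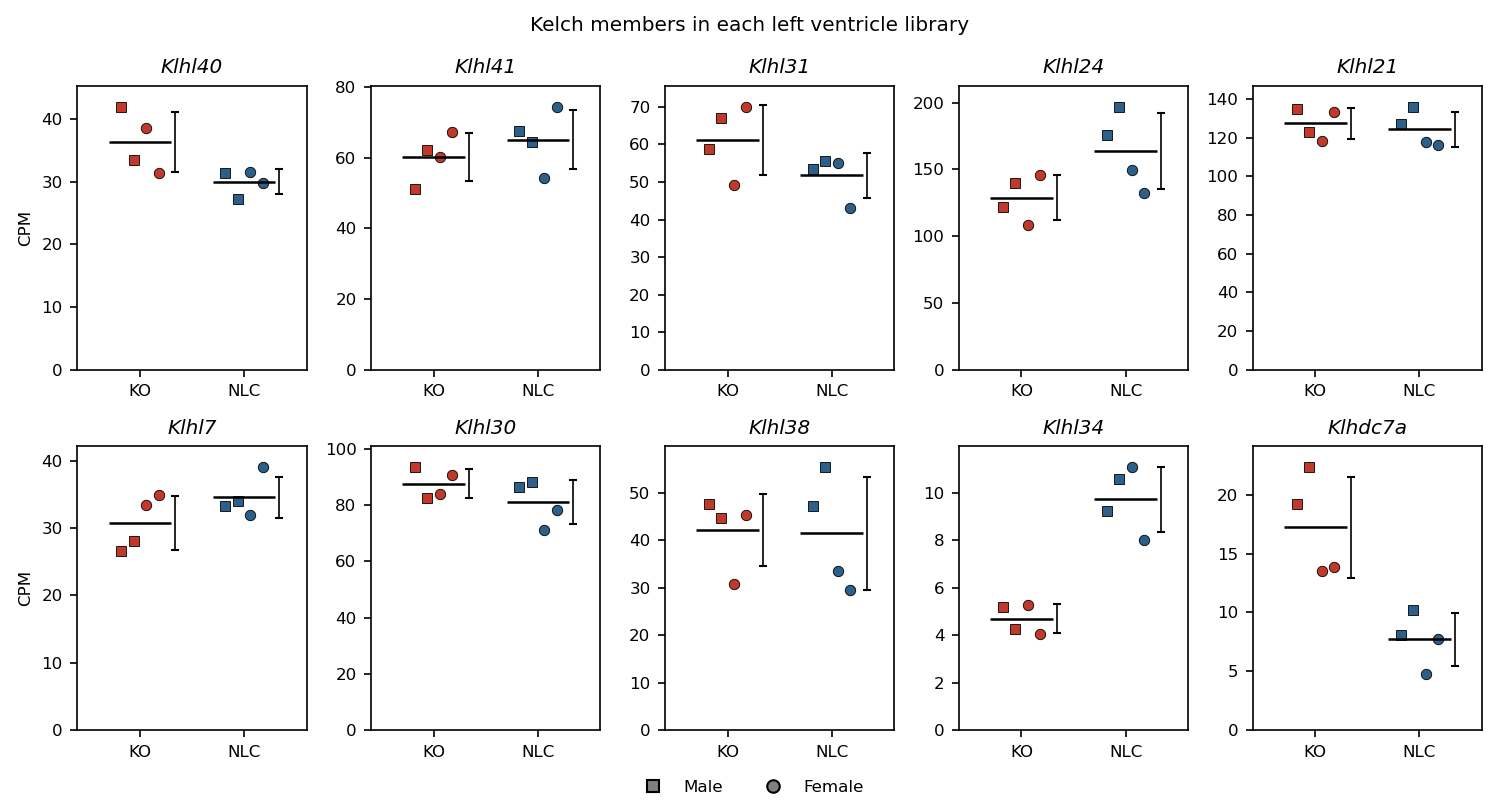
CPM (TMM-scaled) of each kelch member in the 8 libraries, KO left of NLC, with squares for males and circles for females. Horizontal lines are group means and bars are SD (n = 4 each). Klhdc7a runs from 13.6 to 22.3 CPM in KO and 4.79 to 10.2 CPM in NLC, and Klhl34 from 4.06 to 5.27 CPM in KO and 8.02 to 11.1 CPM in NLC, while the groups overlap for the other 8 genes.

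The fold change had the same sign in each sex for both genes. As their KO and NLC libraries did not overlap, this was fixed in advance and is no further result. Neither gene passed across all genes within males alone or within females alone (0 of 10 members in each). How many of all genes passed within 1 sex is not given here, so these counts are not read as a result about the members. Within males the log2 fold change was 1.18 (SE 0.205) for Klhdc7a and -1.06 (SE 0.21) for Klhl34. Within females it was 1.13 (SE 0.211) for Klhdc7a and -1.03 (SE 0.211) for Klhl34. Library numbers in the labels place both male KO libraries before both male NLC libraries, while in females the KO libraries stand on either side of the NLC libraries. The part of library order was not tested.

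The call of the 2 genes depended on which libraries entered. When each library was left out in turn, both passed in 2 of 8 fits, those without NLC replicate 3 or NLC replicate 4. Neither passed without NLC replicate 1, NLC replicate 2 or any one KO replicate. Of all genes, 50 of 14849 passed without NLC replicate 3 and 20 of 14848 without NLC replicate 4. In each of the other fits 0 to 4 genes passed, so the loss of the call was not particular to these 2 genes. The log2 fold change stayed between 1.05 and 1.30 for Klhdc7a and between -1.14 and -0.95 for Klhl34 in these 8 fits.

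The start regions of both genes are shown because these are the members whose groups separated. The sequences are RefSeq windows of GRCm38.p6 that run from 250 bases before to 50 bases after the annotated start. That of Klhdc7a lies at chr4:139967977-139968276 (minus strand) and that of Klhl34 at chrX:157818185-157818484 (plus strand). Capitals mark the E-box letters CANNTG, the site of bHLH factors such as MyoD, which read the same on both strands.
Klhdc7a: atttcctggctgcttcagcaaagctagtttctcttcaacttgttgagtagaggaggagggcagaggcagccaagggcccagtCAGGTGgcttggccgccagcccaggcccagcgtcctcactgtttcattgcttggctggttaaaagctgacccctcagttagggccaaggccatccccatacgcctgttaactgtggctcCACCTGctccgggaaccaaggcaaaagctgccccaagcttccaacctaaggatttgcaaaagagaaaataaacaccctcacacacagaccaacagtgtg
Klhl34: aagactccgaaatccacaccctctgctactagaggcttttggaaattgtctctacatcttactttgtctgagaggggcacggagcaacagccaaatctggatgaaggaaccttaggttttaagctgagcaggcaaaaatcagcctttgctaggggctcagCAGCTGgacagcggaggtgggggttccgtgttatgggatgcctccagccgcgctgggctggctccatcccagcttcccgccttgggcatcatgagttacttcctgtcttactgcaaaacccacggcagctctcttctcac
The annotated start of Klhl34 is its start codon, so the last 50 bases of its window are coding. The Klhdc7a window held 2 E-boxes and the Klhl34 window 1, and 72.3% of 32851 RefSeq windows of the same length held at least 1. The MCAT letters CATTCC, found in 14.7% of windows, were in neither. The core of FoxO sites, GTAAACA, found in 3.65% of windows, was in neither. The GATA letters AGATAA were found in 11.2% of windows and in neither of these. The TATA box letters TATAAA were found in 13.6% of windows and in neither of these. Neither held a MEF2 box (3.19% of windows) or a CArG box (1.63%). Each motif was searched on both strands.

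The libraries were then searched for genes whose course over the 8 animals was most like that of the 2 genes. Likeness was the root mean square difference of log2 CPM after each gene was centred on its own mean, over 8 libraries and 12096 named genes whose mean was 1 CPM or more. For Klhl34 the nearest were Myot, which encodes the Z-disc protein myotilin (difference 0.227), Armc2 (0.246) and Rps6ka2, which encodes the kinase RSK3 (0.249), against a median of 0.567 over all these genes. For Klhdc7a they were Kcnj14, an inward rectifier potassium channel gene (0.263), Rasl10a (0.327) and Epn3, an epsin gene (0.336), against a median of 0.706. The course of both members holds the KO against NLC difference for which they were known, so genes that differ in that contrast come out near them, and the medians over all genes are given only for scale. Epn3 and Rps6ka2 were themselves called in that contrast (edgeR adjusted p = 0.0249 and 0.046). Kcnj14, Rasl10a, Myot and Armc2 were not called (edgeR adjusted p = 0.203, 0.218, 0.13 and 0.179). Kcnj14 was near the cut of 1 CPM, at 1.66 ± 0.801 CPM in KO and 0.757 ± 0.224 CPM in NLC. Myot was measured at 33.1 ± 7.85 CPM in KO and 62.2 ± 10.9 CPM in NLC (SD, n = 4 each).

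Klhl40, Klhl41 and Klhl31 encode the members with known sarcomere partners. KLHL40 stabilises nebulin and leiomodin-3, KLHL41 acts on nebulin and on sarcomere assembly, and changes in either gene cause nemaline myopathy in people. KLHL31 has filamin-C as a partner, and its loss causes a myopathy in mice. None of the 3 genes passed the test across all genes, and the KO and NLC libraries overlapped for each.

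Klhl40 (chromosome 9, 121777607 to 121783818) stood at 41.9, 33.4, 38.6 and 31.4 CPM in KO replicates 1 to 4 and at 31.4, 27.2, 31.5 and 29.8 CPM in NLC replicates 1 to 4. KO replicates 1, 2 and 3 were above every NLC library, and KO replicate 4 was within their range. Its means were 36.3 ± 4.79 CPM in KO and 29.97 ± 2.00 CPM in NLC, with a log2 fold change of 0.28 (SE 0.102, 95% interval 0.05 to 0.50, edgeR adjusted p = 0.350). The interval corresponds to a difference of 3.47% to 41.8%.

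Klhl41 (chromosome 2, 69670120 to 69684230) stood at 51.1, 62.1, 60.2 and 67.3 CPM in KO and 67.5, 64.5, 54.2 and 74.3 CPM in NLC. Neither group stood apart, and the log2 fold change was -0.12 (SE 0.108, 95% interval -0.36 to 0.12). Klhl31 (chromosome 9, 77636500 to 77660127) stood at 58.7, 67.0, 49.2 and 70.0 CPM in KO and 53.3, 55.6, 54.96 and 43.0 CPM in NLC. Of its KO libraries only replicate 3 was below the highest NLC library, and the log2 fold change was 0.24 (SE 0.116, 95% interval -0.01 to 0.50).

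The start regions of Klhl40 (chr9:121777357-121777656, plus strand) and Klhl41 (chr2:69669870-69670169, plus strand) are given beside them because these members share a known muscle partner, nebulin. Capitals again mark CANNTG and, in Klhl41, the MEF2 box, a site of the muscle factor MEF2 searched on both strands.
Klhl40: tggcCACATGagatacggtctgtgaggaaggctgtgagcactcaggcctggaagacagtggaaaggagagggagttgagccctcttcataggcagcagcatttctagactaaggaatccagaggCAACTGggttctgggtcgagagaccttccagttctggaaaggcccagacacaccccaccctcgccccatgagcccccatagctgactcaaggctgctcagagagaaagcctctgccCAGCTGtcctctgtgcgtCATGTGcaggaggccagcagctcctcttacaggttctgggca
Klhl41: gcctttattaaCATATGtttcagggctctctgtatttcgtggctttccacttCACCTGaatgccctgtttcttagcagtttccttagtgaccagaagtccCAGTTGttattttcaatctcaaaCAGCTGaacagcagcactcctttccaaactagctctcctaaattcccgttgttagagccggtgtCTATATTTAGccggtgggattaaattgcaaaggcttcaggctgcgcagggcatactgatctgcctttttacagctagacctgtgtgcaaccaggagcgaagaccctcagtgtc
Each window held 4 E-boxes. That of Klhl41 also held the MEF2 box CTATATTTAG, which begins 63 bases before the annotated start, and it was the only one of the 7 member windows found in the RefSeq table with such a box. The table gave no window for Klhl24, Klhl30 and Klhl38.

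Genes listed for known partners of the members did not pass either. This list was not limited to the 3 sarcomere-linked members, and also held Aurkb (Aurora B kinase) and Krt14 (keratin 14). Of 9 listed partner genes 8 were tested and 0 passed by edgeR, DESeq2 or limma voom, with 1 at an unadjusted edgeR p under 0.05, a level that 11.9% of all genes tested passed. That gene was Des, which encodes desmin, at 2861 ± 150.3 CPM in KO and 2463 ± 200.2 CPM in NLC (log2 fold change 0.22, SE 0.0682, edgeR adjusted p = 0.309). Lmod3, the leiomodin-3 gene, stood at 142 ± 11.4 CPM in KO and 126 ± 19.0 CPM in NLC (log2 fold change 0.18, SE 0.09). The median log2 fold change was 0.04 over the 8 partner genes and -0.01 over all genes tested.

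Skeletal muscle markers were examined beside the sarcomere-linked members, since Klhl40 and Klhl41 are also made in skeletal muscle. The 16 markers summed to 114 to 200.5 CPM in KO and 123 to 175 CPM in NLC. The fast myosin gene Myh4 had 0 reads in all 8 libraries, and Myh1 and Myh2 stood at 0 to 0.0376 CPM in KO and 0 to 0.0692 CPM in NLC. Of the 11 markers tested 9 had a positive log2 fold change, with a median of 0.71. None (0 of 11) passed with edgeR, while 7 had an unadjusted p under 0.05, as did 11.9% of all genes tested. DESeq2 called 1, against 1.02% of all genes tested, and limma voom 0, against 13 of 14695. Of these 7, Myl1 and Cacna1s had negative fold changes (-0.71 and -0.39). The rest of the 7 were Ryr1, Tnnt3, Mylpf, Tnni2 and Atp2a1, higher in KO at low levels. Their means over the 8 libraries ran from 0.623 CPM (Ryr1) to 4.28 CPM (Atp2a1). Myl1, a fast myosin light chain gene, stood at 26.4 ± 4.59 CPM in KO and 43.4 ± 18.3 CPM in NLC, and Cacna1s, the skeletal calcium channel gene, at 12.8 ± 2.88 CPM in KO and 16.7 ± 0.744 CPM in NLC, both named after their values were seen. Myl1 was highest in NLC replicate 4 (69.4 CPM), which also had the highest level of the atrial marker Myl7 (983 CPM). Whether atrial tissue had a part in the Myl1 difference was not tested. The part of the skeletal muscle markers in the Klhl40 difference was not tested.

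Klhl24, Klhl21 and Klhl7 are expressed in many tissues and encode cullin-3 adaptors. Klhl24 was the most abundant member by CPM and the one of these with the largest difference. In people, changes in KLHL24 cause skin fragility, in which keratin 14 is degraded, and heart muscle disease. KLHL21 is known from human cells as an adaptor for Aurora B kinase in cell division, and changes in KLHL7 cause a retinal dystrophy in people.

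Klhl24 (chromosome 16, 20097542 to 20129221) stood at 122, 139.5, 108 and 146 CPM in KO replicates 1 to 4 and at 176, 197, 149.7 and 132 CPM in NLC replicates 1 to 4. NLC replicates 1, 2 and 3 were above every KO library, and NLC replicate 4 was within the KO range. Its means were 129 ± 16.9 CPM in KO and 163 ± 28.4 CPM in NLC, with a log2 fold change of -0.33 (SE 0.115, edgeR adjusted p = 0.350). The 95% interval ran from -33.4% to -5.02%. Without a low-count filter it passed (adjusted p = 0.0136), in a fit that called 2.22% of 27953 genes. Its log2 fold change was -0.51 (SE 0.147) within males and -0.15 (SE 0.147) within females, and the difference between the sexes is tested below.

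Klhl21 (chromosome 4, 152008803 to 152017680) was the steadiest member. It stood at 135, 123, 119 and 134 CPM in KO and 127, 136, 118 and 116.5 CPM in NLC, and its highest library was 1.17 times its lowest. The log2 fold change was 0.04 (SE 0.0704), with a 95% interval of -7.87% to 14.4%. Klhl7 (chromosome 5, 24100605 to 24160792) stood at 26.6, 28.1, 33.4 and 34.8 CPM in KO and 33.3, 33.98, 31.98 and 39.0 CPM in NLC. Both male KO libraries were below every other library, and the log2 fold change was -0.18 (SE 0.0866, 95% interval -0.37 to 0.01).

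The cullin-3 ligase itself was then compared, with 24 listed genes for the cullin, its RING partner, the NEDD8 pathway that activates it and the COP9 signalosome that removes NEDD8. All 24 were tested and 0 passed in edgeR, where 2 had an unadjusted p under 0.05 (11.9% of all genes tested did). DESeq2 called 1 higher gene, against 1.02% of all genes tested, and limma voom 0, against 13 of 14695. The DESeq2 call was Ube2m, the NEDD8-conjugating enzyme gene, at 172 ± 23.3 CPM in KO and 141 ± 12.0 CPM in NLC (log2 fold change 0.29, SE 0.0702, edgeR adjusted p = 0.212). Cops6, for a signalosome subunit, stood at 126 ± 8.35 CPM in KO and 112 ± 7.29 CPM in NLC. Cul3 stood at 96.5 ± 9.58 CPM in KO and 110.4 ± 14.7 CPM in NLC, and was named after its values were seen. The list had 12 positive and 12 negative fold changes and a median of -0.01.

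Klhl30 and Klhl38 are muscle members whose proteins are little described. Klhl30 (chromosome 1, 91351016 to 91362416) stood at 93.5, 82.6, 83.9 and 90.7 CPM in KO and 86.4, 88.4, 71.1 and 78.4 CPM in NLC. The groups overlapped, and the log2 fold change was 0.12 (SE 0.0745, 95% interval -0.05 to 0.28). Klhl38 (chromosome 15, 58314573 to 58324169) stood at 47.7, 44.7, 30.9 and 45.3 CPM in KO and 47.2, 55.4, 33.6 and 29.5 CPM in NLC. Here the spread was within each group, with a coefficient of variation of 18.1% in KO and 28.9% in NLC. In NLC both males were above both females, while in KO female replicate 4 was within the range of the males. The sexes are compared below. The log2 fold change was 0.06 (SE 0.132, 95% interval -0.24 to 0.35).

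**Figure D2:**
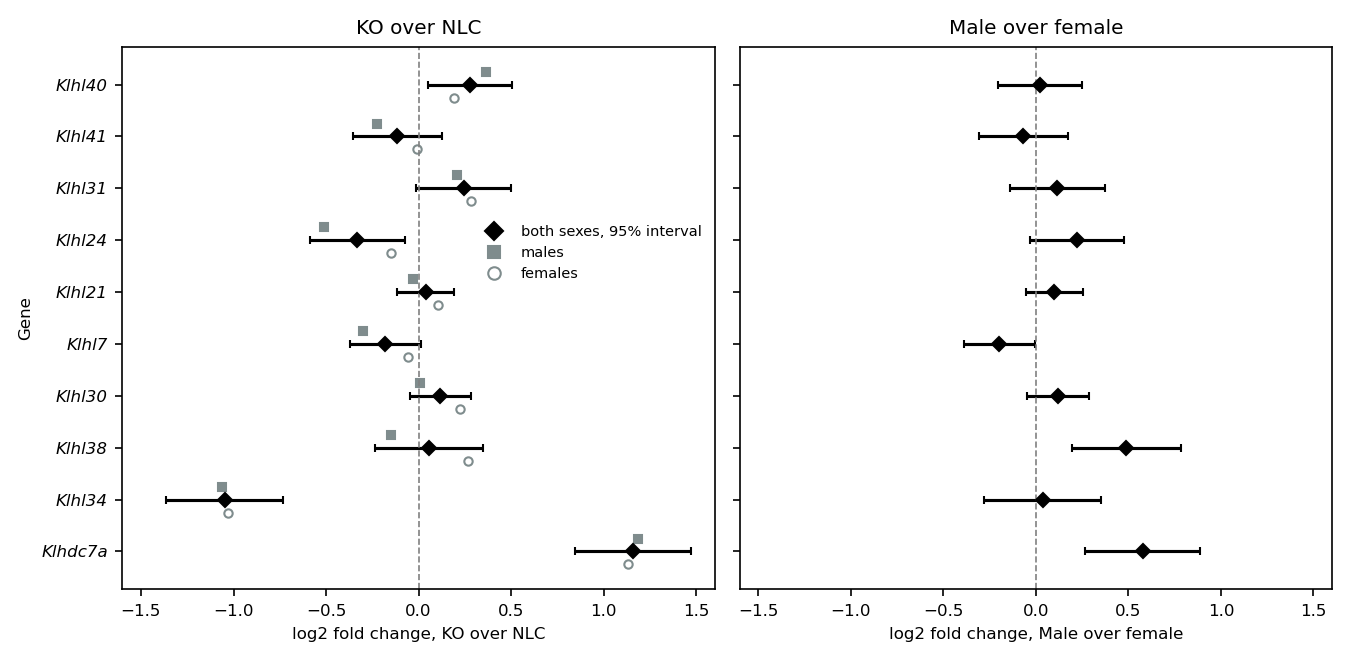
Left, log2 fold change of KO over NLC for each kelch member, with diamonds for both sexes and their 95% intervals, squares for males alone and open circles for females alone. Right, log2 fold change of male over female with its 95% interval. In the left panel Klhdc7a (1.16) and Klhl34 (-1.05) are shown at the values for which they were known when the list was made. In the right panel Klhdc7a (0.58) and Klhl38 (0.49) have the largest values.

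Levels between members were compared per kilobase of exon, since longer transcripts give more reads. On this scale, averaged over the 8 libraries, the order was Klhl21 (31.6 CPM per kb), Klhl30 (27.3), Klhl41 (24.8), Klhl38 (18.9), Klhl24 (14.4), Klhl40 (13.3), Klhl31 (8.70), Klhl7 (8.25), Klhl34 (3.72) and Klhdc7a (1.598). The ranges over the 8 libraries of neighbours in this order overlapped except between Klhl40 and Klhl31 and between Klhl7 and Klhl34. The order differed between genotypes in 2 places. Klhl24 averaged 12.7 and Klhl40 14.5 CPM per kb in KO, against 16.1 and 11.98 in NLC. Klhl31 averaged 9.43 and Klhl7 7.76 CPM per kb in KO, against 7.97 and 8.73 in NLC. Klhl21 stood at the 92.4th percentile of genes tested and Klhdc7a at the 35.5th. Klhl24 had the highest CPM, 146 on average, but a lower place per kilobase, as its annotated exons cover 10183 bases, of which 1803 are coding. Klhdc7a has 7807 exonic bases, of which 2322 are coding, so its level per kilobase depends on the annotated untranslated ends.

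**Figure D3:**
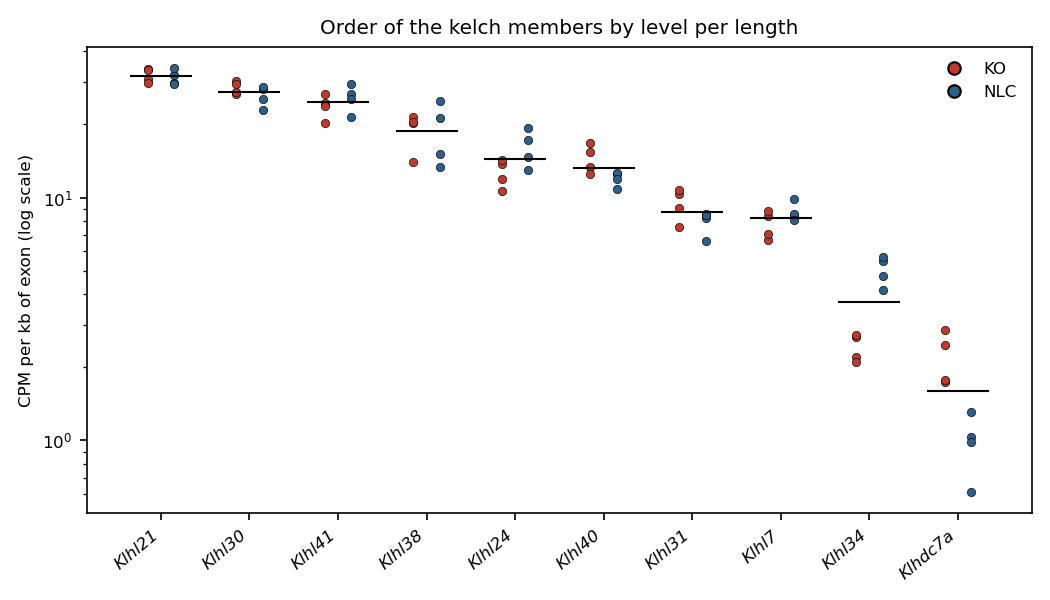
CPM per kb of annotated exon (log axis) for each kelch member in the 4 KO (left of each pair) and 4 NLC libraries, ordered by the mean over all 8, which the horizontal line marks. The members span 1.598 to 31.6 CPM per kb, and the groups separate only for Klhl34 and Klhdc7a, which are the least abundant.

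Members also differed in how steady they were between animals. The biological coefficient of variation that edgeR estimated, with genotype and sex in the fit, was lowest for Klhl21 (8.74%) and Klhl30 (8.83%). It was highest for Klhl34 (14.3%) and Klhdc7a (13.9%), with Klhl38 close to them (13.8%). Klhl21, Klhl30, Klhl34 and Klhdc7a stood at the 14.3rd, 15.9th, 63.9th and 61.9th percentiles of all genes tested. With sex not fitted, the coefficient within KO and within NLC was 13.3% and 14.1% for Klhl34. It was 24.9% and 29.1% for Klhdc7a, and 18.1% and 28.9% for Klhl38. After centring, Klhl30 and Klhl21 were also the pair of members with the smallest root mean square difference over the 8 libraries, 0.0651 on the log2 scale. This difference is small between any genes that vary little, so it is not read as a shared course. From Klhl21 the median over 12096 named genes was 0.177, and the nearest, Eif3c, lay at 0.0208.

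Males and females were compared across both genotypes, a contrast that the choice of the list did not use. No member passed the edgeR test (0 of 10, against 0.299% of genes tested), and 3 had an unadjusted p under 0.05, as did 12.8% of genes tested. The sexes overlapped for every member, and did not overlap for 6.87% of genes tested. limma voom called 0 members, where it called 40 of 14695 genes. DESeq2 called 2 members, Klhdc7a and Klhl38, both higher in males, where it called 1.47% of genes. Without a low-count filter edgeR called the same 2 members, where it called 2.65% of 27953 genes.

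Klhdc7a stood at 14.97 ± 6.90 CPM in males and 9.97 ± 4.46 CPM in females (SD over 4 animals of both genotypes), and its log2 fold change (male over female) was 0.58 (SE 0.14, edgeR adjusted p = 0.176, DESeq2 adjusted p = 0.014). Both males were above both females within each genotype. Klhl38 stood at 48.7 ± 4.60 CPM in males and 34.8 ± 7.18 CPM in females, with a log2 fold change of 0.49 (SE 0.132, edgeR adjusted p = 0.204, DESeq2 adjusted p = 0.0273). Of the females only KO replicate 4, at 45.3 CPM, was within the range of the males. When each library was left out in turn, the log2 fold change of Klhl38 was 0.40 to 0.65 and passed by edgeR in 1 of 8 fits, the one without that library (adjusted p = 0.0391), with adjusted p up to 0.512 in the others.

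Klhl7 had the only unadjusted p under 0.05 in the other direction, at 30.5 ± 3.72 CPM in males and 34.8 ± 3.03 CPM in females (log2 fold change -0.20, SE 0.0866, edgeR adjusted p = 0.375). Klhl34, the X-linked member, stood at 7.31 ± 3.06 CPM in males and 7.10 ± 3.12 CPM in females (log2 fold change 0.04, 95% interval -0.28 to 0.35). The spread within each sex holds the genotype difference described above.

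Whether the KO difference itself depended on sex was tested as an interaction. No member passed (0 of 10), nor did any of the 14695 genes (0%) with edgeR, with 0 members and 7.46% of genes at an unadjusted p under 0.05. DESeq2 also called 0 members, against 0.102% of genes, and limma voom 0 members, against 0 of 14695 genes. Without a low-count filter edgeR called 0 members, where 0.869% of 27953 genes passed. The largest interaction estimates were -0.42 (SE 0.238, male minus female) for Klhl38 and -0.36 (SE 0.207) for Klhl24, each with an edgeR adjusted p of 0.675. For Klhdc7a the estimate was 0.05 (SE 0.294, 95% interval -0.61 to 0.71) and for Klhl34 -0.03 (SE 0.297, 95% interval -0.70 to 0.64). With 2 animals per sex and genotype these intervals are wide.

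The rest of the kelch family was set beside the members. The symbols gave 59 further family genes, of which 53 passed the low-count filter. Among these 53, 0 passed by edgeR in KO against NLC, and 7 had an unadjusted p under 0.05 (against 11.9% of all genes tested). DESeq2 called 1 lower and 0 higher, against 1.02% of all genes tested, and limma voom called 0, against 13 of 14695. The groups did not overlap for 5 of the 53, against 6.25% of all genes tested. The median log2 fold change was 0.05 over the 10 members and -0.04 over the 53 others, against -0.01 over all genes tested.

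Klhl4, an X-linked BTB-kelch gene, was the DESeq2 call. It stood at 4.37 ± 0.414 CPM in KO and 6.46 ± 0.332 CPM in NLC (SD, n = 4 each), with a log2 fold change of -0.56 (SE 0.118, edgeR adjusted p = 0.179). Klhdc3 had the next smallest p, at 91.3 ± 2.76 CPM in KO and 78.3 ± 1.45 CPM in NLC (log2 fold change 0.22, SE 0.0564, edgeR adjusted p = 0.218). The family gene with the highest level was Ivns1abp, whose product binds the NS1 protein of influenza virus, at 1048 ± 61.8 CPM in KO and 1132 ± 263 CPM in NLC. The 10 members made up 19.7% to 22.4% of the summed CPM of the family in KO and 18.4% to 22.0% in NLC.

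**Figure D4:**
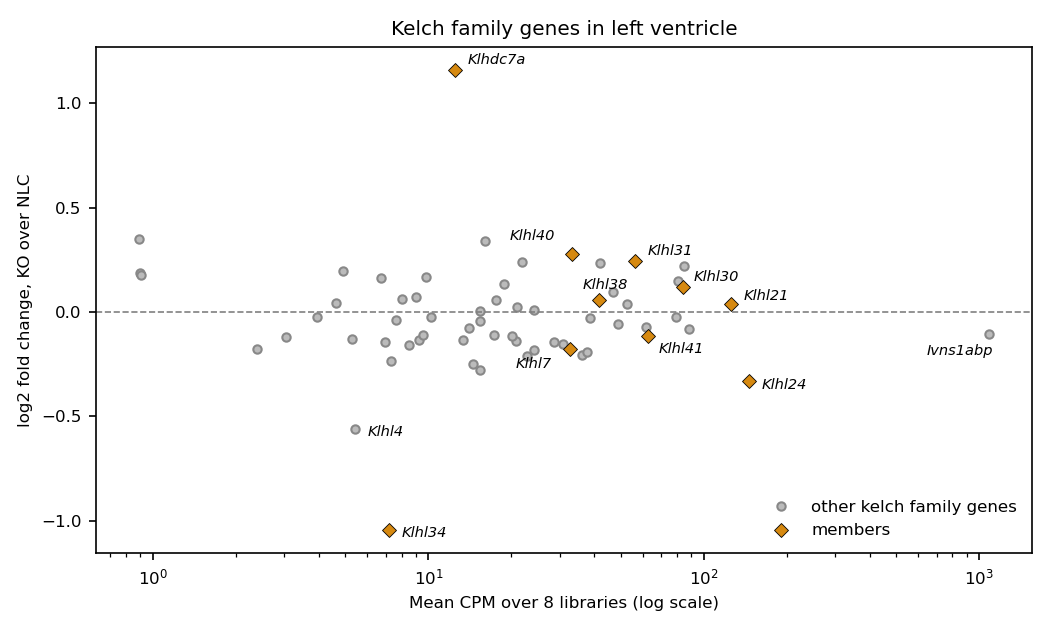
Log2 fold change (KO over NLC) against mean CPM over the 8 libraries (log axis) for the 63 tested kelch family genes, with members as diamonds and the other 53 genes as circles. The other 53 genes run from -0.56 to 0.35, and Klhdc7a (1.16) and Klhl34 (-1.05) are shown at the values for which they were known when the list was made.

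Counts of 3 members overlap exons of genes on the opposite strand. Gm15943 covers 1446 exonic bases of Klhl38, Gm47108 covers 540 of Klhl40 and Gm9768 covers 817 of Klhl21. These partners had at most 0.176, 0.527 and 0.795 CPM in any library. The strand setting of the counting is not given in the sources used here, so reads of the partners and the members may not be separated. No gene on the opposite strand overlaps Klhdc7a or Klhl34. On the same strand Mir2139 covers 95 exonic bases of Klhdc7a and had 0 reads over all libraries. How the counting treated reads over both genes is not given in the sources used here.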

How the data were processed

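RNA-seq of the left ventricle of 8 mice was analysed, 4 KO and 4 NLC, with groups and replicate numbers from the titles and sex from the labels. The authors deposited 1 file per animal with raw counts of reads for each Ensembl gene. STAR, HTSeq, DESeq2 and the build GRCm38 are named in the submitters' processing notes, while tool versions, annotation release and the strand setting were not given in the sources used here. Summary entries that name no gene (multiply mapped 16.8% to 20.3% of tallied reads, outside genes 3.07% to 4.08%, ambiguous 1.26% to 1.38%) were left out.

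Symbols, exons and coordinates came from GENCODE M21 (GRCm38), which named 55227 of 55487 identifiers. Promoter windows are RefSeq's (GRCm38.p6). Counts were fitted with edgeR 4.0.16 in R 4.3.3 after filterByExpr and TMM scaling, by glmQLFit and glmQLFTest with genotype and sex, and with 1 mean per sex and genotype for the interaction. Benjamini-Hochberg adjustment ran over the 14695 genes tested (threshold 0.05). The SE is the log2 fold change divided by the root of its F statistic. Log2 CPM used a prior count of 2. Alternatives were DESeq2 1.42.0, limma 3.58.1 voom, other scalings and filters, no sex term, a replicate block and each library left out.

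The members, the lists and the naming rule (all members, the called or 2 leading genes of each list, the 3 genes most like a called member, and Adgrf5) were chosen with earlier results of these data known. No pair of libraries in a group agreed within sampling noise (chi-square per degree of freedom 15.2 to 41.4). The series' design text calls the animals biological replicates.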

Additional observations from a re-analysis of the deposited data

How the results depend on the processing

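Over 17 alternative settings the fold change of KO over NLC kept its direction for all 10 members, apart from Klhl38 and Klhl21 with a library left out. Klhdc7a passed in 9 of the 17 settings (log2 fold change 1.05 to 1.30, adjusted p up to 0.139) and Klhl34 in 10 (-1.14 to -0.95, adjusted p up to 0.186). Klhl24 was called without a low-count filter, and no other member in any setting. The count of genes called in KO against NLC, 15 with edgeR, was 150 with DESeq2, 621 without a low-count filter, 6 without a sex term, and 0 to 50 with a library left out. The count for male against female, 44, was 216 with DESeq2, 742 without a low-count filter and 16 to 176 with a library left out. The interaction count, 0, was 15 with DESeq2, 243 without a low-count filter and 0 to 8 with a library left out. The cause of these shifts was not tested.

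With a library left out, Klhl38 ranged from -0.10 to 0.14 and Klhl21 from -0.011 to 0.075 in KO against NLC. In male against female, Klhl34 ranged from -0.059 to 0.14, Klhl40 from -0.067 to 0.076 and Klhl41 from -0.17 to 0.0059. In the interaction, Klhdc7a ranged from -0.33 to 0.36, Klhl34 from -0.28 to 0.18, Klhl31 from -0.31 to 0.20, and Klhl40 from -0.0026 to 0.33. Removing the mitochondrially encoded genes raised every member's CPM 1.24-fold, and with DESeq2 size factors it was 0.9999 to 1 times the TMM value.

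With the replicate number as a block in place of sex, 0 genes passed in KO against NLC (1717 at an unadjusted p under 0.05), and Klhdc7a and Klhl34 each had an adjusted p of 0.052. For animals of the same number, the correlations of their deviations from the group means, across genes, were 0.246, 0.0937, -0.208 and 0.0873 for numbers 1 to 4. Animals of unlike number gave -0.375 to 0.497, a range that holds these values. Sex, which animals of the same number share, was not removed from the deviations. The numbers were not taken to pair animals.

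The lowest count of a member in a library was 108 reads (Klhl34).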

Other observations

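Marker lists of other cell types were measured beside the kelch genes, and 0 of their genes passed by edgeR in KO against NLC. At an unadjusted p under 0.05 there were 4 of 8 endothelial, 2 of 7 atrial, 2 of 12 cardiomyocyte, and 0 fibroblast, macrophage and erythroid markers, against 11.9% of all genes tested. DESeq2 called 1 cardiomyocyte and 1 skeletal muscle marker, both higher in KO, and limma voom called 0. Of all genes tested, DESeq2 called 1.02% and limma voom 13 of 14695. The cardiomyocyte call was Myh7, the slow myosin heavy chain gene, at 252 ± 51.2 CPM in KO and 167 ± 62.7 CPM in NLC (log2 fold change 0.64, SE 0.176). The skeletal muscle call was Atp2a1, the fast-twitch calcium pump gene, at 5.94 ± 1.28 CPM in KO and 2.61 ± 1.67 CPM in NLC (log2 fold change 1.21, SE 0.299). Ryr1, the skeletal ryanodine receptor gene, stood at 0.897 ± 0.18 CPM in KO and 0.349 ± 0.152 CPM in NLC, while Myl1 and Cacna1s of the same list had negative fold changes. Tnnt2, the cardiac troponin T gene, stood at 11731 ± 959 CPM in KO and 10368 ± 611 CPM in NLC. Of the 12 cardiomyocyte markers 9 had a positive log2 fold change and 3 a negative one, with a median of 0.07. The negative ones were Ryr2 (-0.20), Actn2 (-0.12) and Pln (-0.12). Among endothelial markers Emcn stood at 39.2 ± 0.997 CPM in KO and 47.9 ± 4.36 CPM in NLC, and Vwf at 65.8 ± 8.79 CPM in KO and 80.9 ± 4.71 CPM in NLC. Among fibroblast markers Pdgfra stood at 29.1 ± 1.58 CPM in KO and 32.2 ± 3.77 CPM in NLC, and Dcn at 381 ± 65.3 CPM in KO and 424 ± 41.5 CPM in NLC. Among macrophage markers Cx3cr1 stood at 4.26 ± 0.825 CPM in KO and 6.17 ± 2.37 CPM in NLC, and Cd68 at 11.1 ± 2.28 CPM in KO and 9.54 ± 0.384 CPM in NLC. The globin genes Hba-a2 and Hba-a1 stood at 15.7 ± 14.7 and 59.5 ± 36.6 CPM in KO, and at 8.34 ± 4.29 and 41.4 ± 18.8 CPM in NLC. Values are means ± SD (n = 4 each). The atrial genes Sln and Myl4 ran from 0.0264 to 32.8 and 3.20 to 186 CPM in KO, and from 0.0337 to 222 and 2.23 to 1020 CPM in NLC.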
